A study of Homo sapiens with 6 samples.

Results

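The genes examined were 10 components of oxygen sensing and pH control, taken from the count table by their symbols: the hypoxia-inducible factor (HIF) alpha subunits HIF1A and EPAS1, the beta subunits ARNT and ARNT2, the HIF prolyl hydroxylases EGLN1, EGLN2 and EGLN3, the ubiquitin ligase subunit VHL, and the membrane carbonic anhydrases CA9 and CA12. All 10 were among the 25343 gene rows of the table, and 9 had enough counts to be tested. A375 is an established human cell line from a malignant melanoma, used here in its parental form. Panobinostat blocks histone deacetylases, which take acetyl groups off histones and other proteins. The vehicle group received PBS in the same volume and the treated group 50 nM panobinostat, each for 24 h, with 3 bulk RNA libraries per group. Nothing in the labels says whether the libraries came from separate cultures, so the p-values reflect spread between libraries alone, and that spread may be technical.

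HIF is a transcription factor made of an oxygen-labile alpha subunit and a stable beta subunit. When oxygen is present, the EGLN enzymes hydroxylate prolines of the alpha subunit, the VHL protein binds the hydroxylated form, and its ligase complex marks it for the proteasome. When oxygen is scarce the alpha subunit persists, pairs with ARNT and binds hypoxia response elements of genes for glycolysis, blood vessel growth and pH control, including EGLN3 and CA9. Much of this control acts on protein stability, which RNA counts do not measure. Carbonic anhydrases interconvert carbon dioxide and bicarbonate, and CA9 and CA12 do so on the outer face of the plasma membrane.

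Total counts were 32293283 to 38944399 per library, and 3 counts in a library corresponded to 0.0774 to 0.0928 CPM (counts relative to library size, scaled between libraries by TMM). The neural crest and melanoma markers SOX10, MITF and S100B were present in vehicle at 813 ± 56.3, 53.5 ± 2.23 and 71.9 ± 0.877 CPM, whereas the pigment genes MLANA and TYR had 0 counts in every library. SOX10, MITF and S100B fell to 368, 33.2 and 11.4 CPM with panobinostat, and S100A1 from 108 to 67.9 CPM. The pigment gene PMEL rose from 0.628 to 194 CPM, SOX9 from 0.252 to 10.2 CPM and NGFR from 16.7 to 80.4 CPM. Of the 10 lineage markers, 6 were over the filter in both groups, of which 2 (33.3%) were higher and 4 (66.7%) lower. Of all genes tested, not limited in this way, 41.8% were called higher and 41.0% lower. The summed level of the 10 markers was 1001 to 1121 CPM in the vehicle libraries and 736 to 799.6 CPM in the treated libraries. Of 15 markers of epithelial, leukocyte, endothelial and fibroblast cells, 9 were tested and 6 were over the filter in both groups, of which 4 (66.7%) were higher and 2 (33.3%) lower. Their summed level was 13.1 to 14.7 CPM in the vehicle libraries and 78.9 to 83.1 CPM in the treated libraries, with CDH1 and PTPRC at 0 counts in vehicle and the largest part from COL1A1 (56.1 CPM with panobinostat). The part of either marker list in the results was not tested. In bulk RNA a change in the number of cells of a kind and a change in RNA per cell cannot be told apart.

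The sequences before the transcription start are shown for HIF1A, EPAS1, EGLN3 and CA9, the alpha subunits and the members best known as HIF targets. They show where hypoxia response element cores lie. Whether the position of a core relates to the changes in RNA was not tested. Each line gives the 250 bases before the RefSeq start on GRCh38.p14, 5′ to 3′ on the strand of the gene, and capitals mark the core ACGTG or GCGTG on this strand, or CACGT or CACGC where the core lies on the other strand. The locations are chr14:61695263-61695512, plus strand (the first of its RefSeq starts in the table used), chr2:46297157-46297406, plus strand, chr14:33951075-33951324, minus strand, and chr9:35673678-35673927, plus strand.
HIF1A: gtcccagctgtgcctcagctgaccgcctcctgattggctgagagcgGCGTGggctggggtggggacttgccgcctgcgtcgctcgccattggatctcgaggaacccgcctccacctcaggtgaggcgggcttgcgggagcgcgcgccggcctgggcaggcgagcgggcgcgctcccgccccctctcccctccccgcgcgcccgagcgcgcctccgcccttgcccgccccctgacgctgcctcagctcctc
EPAS1: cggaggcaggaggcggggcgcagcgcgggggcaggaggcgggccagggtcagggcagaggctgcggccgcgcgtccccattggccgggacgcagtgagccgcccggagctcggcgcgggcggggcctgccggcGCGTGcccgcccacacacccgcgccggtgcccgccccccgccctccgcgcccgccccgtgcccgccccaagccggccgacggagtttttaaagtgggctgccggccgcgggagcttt
EGLN3: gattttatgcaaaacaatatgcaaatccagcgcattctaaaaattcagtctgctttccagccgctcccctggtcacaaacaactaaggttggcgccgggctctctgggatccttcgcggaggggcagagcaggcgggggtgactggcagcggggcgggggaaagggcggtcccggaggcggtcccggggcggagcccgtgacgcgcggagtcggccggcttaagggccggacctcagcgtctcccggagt
CA9: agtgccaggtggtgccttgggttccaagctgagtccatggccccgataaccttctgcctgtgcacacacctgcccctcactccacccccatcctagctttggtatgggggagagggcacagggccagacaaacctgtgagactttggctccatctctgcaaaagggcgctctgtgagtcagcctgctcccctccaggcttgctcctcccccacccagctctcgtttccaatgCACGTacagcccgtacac
In these windows HIF1A had a core at -204, EPAS1 at -117 and CA9 at -18, counting the base before the start as -1. EGLN3 had none of these letters in its window. Among the other genes, EGLN1 had a core at -13 and CA12 at -234, and EGLN2 had overlapping matches at -49 and -48 before the first of its starts. RefSeq starts were matched for 8 of the 10 genes, ARNT2 and VHL not among them, and 6 of their 10 starts held a core. The same letters stood in 43.2% of the 35116 starts in the RefSeq table, so a core in a window of this length is common and is given only as a description. Of the 53 HIF target genes listed further on, 43 were matched, with 65 starts, of which 52 (80.0%) held a core. The list is of known HIF targets, so a larger share than over all starts could follow from how it was made. Base composition was not taken into account, and the difference from all starts was not tested.

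Panobinostat changed 9 of the 9 tested genes, raising 7 and lowering 2. The libraries of the groups did not overlap for any of the 9. Changes were widespread in this experiment: of 15499 genes tested, 82.8% passed an adjusted p of 0.05, 41.8% as higher and 41.0% as lower, and 83.4% had ranges that did not overlap. The count of changed genes is therefore near the background, and the sizes and directions carry the description. EGLN3 and EPAS1 rose 24.7-fold and 11.7-fold, a size of at least 4-fold that 9.78% of tested genes reached as a called rise. CA12 rose 2.89-fold, HIF1A 2.13-fold and EGLN1 1.49-fold, while VHL and ARNT differed by 1.15-fold and 1.13-fold. ARNT2 fell 5.01-fold and CA9 1.34-fold. Levels are mean CPM ± SD (n = 3 libraries), and log2 fold changes are ± SE. Tests are quasi-likelihood F tests in edgeR, with p-values adjusted over all genes tested by the Benjamini-Hochberg method. The SE is the absolute log2 fold change divided by the square root of the F statistic. It is approximate, and it can understate the error of large changes at low counts, such as that of EGLN3.

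**Figure D1:**
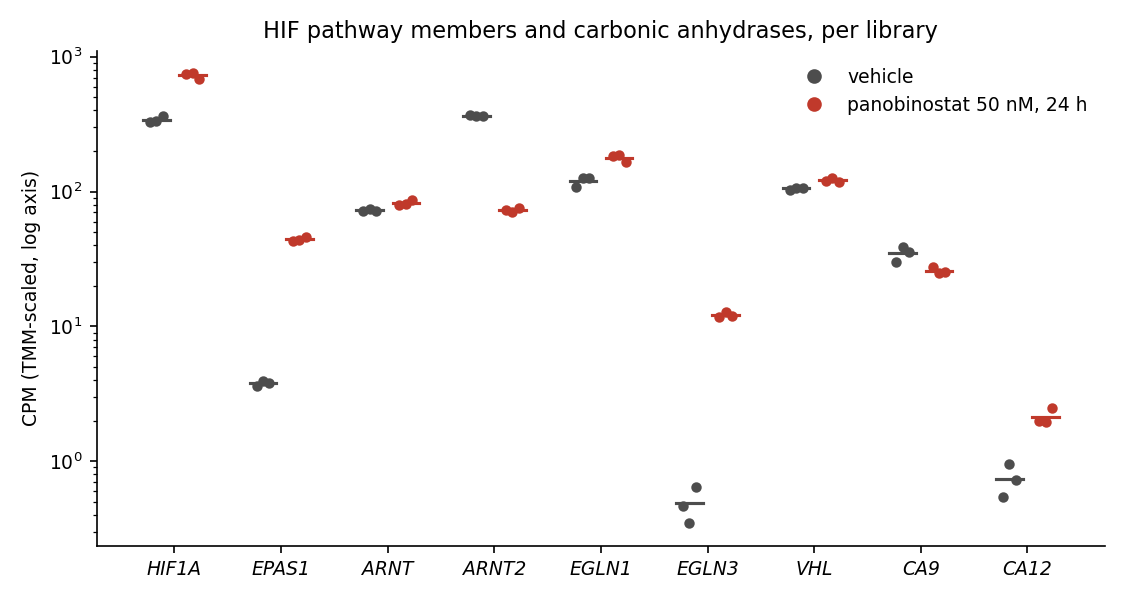
Level of each tested gene in CPM on a log axis, with a point for each of 3 vehicle (grey) and 3 panobinostat (red) libraries and a bar at the group mean. The groups are separate for every gene shown, with the widest gaps for EGLN3, EPAS1 and ARNT2 and narrow ones for ARNT, VHL and CA9.

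Both alpha subunits rose, EPAS1 more than HIF1A. HIF1A, the broadly expressed alpha subunit, stood at 328, 334 and 363 CPM in the vehicle libraries and 749, 754 and 679 CPM with panobinostat. Every treated library was above every vehicle library. The mean went from 342 ± 19.0 to 727 ± 42.0 CPM, a log2 fold change of 1.09 ± 0.05 (edgeR adjusted p = 3.22e-12). EPAS1, which encodes the HIF alpha subunit first described in endothelial cells, was at 3.64, 3.94 and 3.84 CPM in vehicle and 43.2, 43.8 and 46.2 CPM with panobinostat. The groups were far apart, with little spread within either. Its mean rose from 3.81 ± 0.153 to 44.4 ± 1.60 CPM (log2 fold change 3.54 ± 0.07, edgeR adjusted p = 3.43e-17). Within a library, the ratio of HIF1A to EPAS1 counts, which does not depend on the scaling between libraries, was 89.7, 84.5 and 94.4 in vehicle and 17.3, 17.2 and 14.7 with panobinostat. HIF1A thus remained the more counted alpha subunit in all 6 libraries while the ratio dropped 5.46-fold (log2 difference -2.45, exact two-sided permutation p = 0.1, adjusted over 6 ratios 0.1). With 3 libraries against 3, 0.1 is the smallest p this test can give.

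The third alpha subunit, HIF3A, was not tested, with 2 counts over the vehicle libraries and 17 over the treated ones. The antisense RNA HIF1A-AS1 overlaps 2.75% of the exon bases of HIF1A on the opposite strand, and whether the authors counted by strand is not given. HIF1A-AS1 averaged 0.169 CPM in vehicle libraries and 0.345 CPM in treated ones, small beside HIF1A, and HIF1A-AS2 had 8 and 16 counts. HIF1A-AS1 was over the filter in the treated libraries alone, so it was tested only through the group where it was higher. The difference in HIF1A-AS1 (edgeR adjusted p = 0.0185) did not pass with DESeq2 (adjusted p = 0.104), nor with edgeR without vehicle replicate 1, vehicle replicate 2 or panobinostat replicate 3 (adjusted p = 0.0615, 0.0635 and 0.068).

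The beta subunits moved in opposite directions. ARNT, the general partner of the alpha subunits and of the aryl hydrocarbon receptor, was at 71.3, 74.9 and 72.2 CPM in vehicle and 79.6, 81.1 and 86.6 CPM with panobinostat. The ranges were close but did not overlap, and the rise from 72.8 ± 1.86 to 82.4 ± 3.64 CPM was small (log2 fold change 0.18 ± 0.05, edgeR adjusted p = 0.00164). ARNT2, a paralog best known for its role in the nervous system, stood at 367, 363 and 362 CPM in vehicle and 72.7, 70.2 and 75.3 CPM with panobinostat. All treated libraries lay far below the vehicle libraries. The mean fell from 364 ± 2.90 to 72.7 ± 2.51 CPM, a log2 fold change of -2.32 ± 0.04 (edgeR adjusted p = 3.95e-18), at the 1.77 percentile of all genes tested. ARNT2 had more counts than ARNT in each vehicle library, at a ratio of ARNT to ARNT2 of 0.194, 0.206 and 0.199. With panobinostat the ratio was 1.10, 1.15 and 1.15, so the order of the counts turned in all 3 treated libraries (log2 difference 2.50, exact two-sided permutation p = 0.1).

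**Figure D2:**
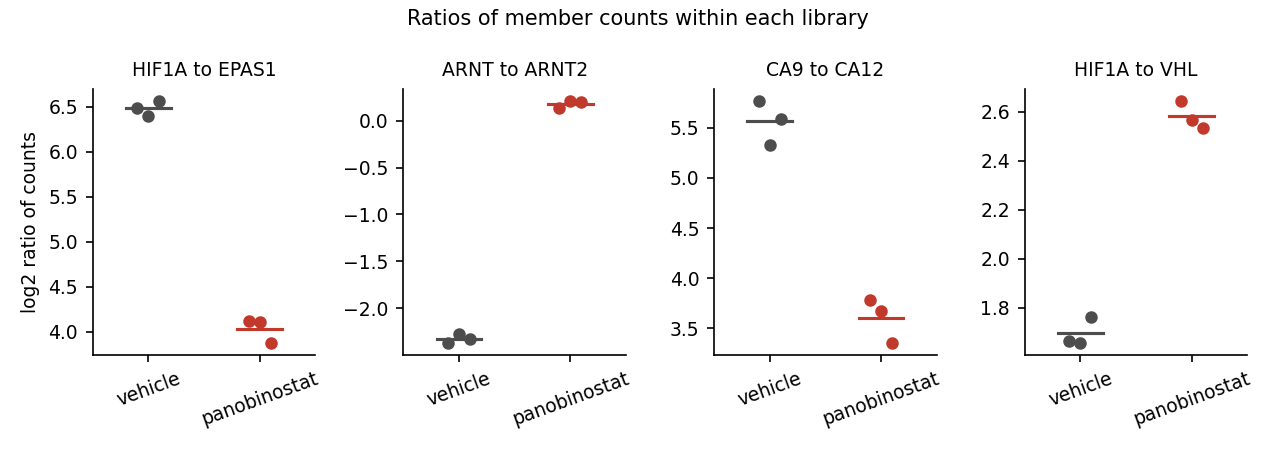
Log2 ratio of the counts of gene pairs within each library, with a point per library and a bar at the mean of 3 vehicle (grey) and 3 panobinostat (red) libraries, each panel on its own axis. The ratio of HIF1A to EPAS1 and of CA9 to CA12 was lower in the treated libraries, and that of ARNT to ARNT2 and of HIF1A to VHL higher, with no overlap in any of these pairs.

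Of the prolyl hydroxylases, EGLN3 rose most. EGLN1, which encodes the main hydroxylase acting on HIF in most cells, was at 109, 126 and 125 CPM in vehicle and 182, 186 and 166 CPM with panobinostat. Vehicle replicate 1 was the lowest, and the groups did not overlap. Its mean rose from 120.1 ± 9.88 to 178 ± 10.5 CPM (log2 fold change 0.57 ± 0.06, edgeR adjusted p = 3.78e-07). EGLN3, a hydroxylase gene that is itself a HIF target, was at 0.465, 0.348 and 0.648 CPM in vehicle, which is 18, 12 and 25 counts. With panobinostat it was at 11.8, 12.8 and 12.0 CPM, from 428, 469 and 389 counts. It thus went from barely counted to a moderate level in all 3 treated libraries. The mean rose from 0.487 ± 0.151 to 12.2 ± 0.528 CPM, a log2 fold change of 4.63 ± 0.14 (edgeR adjusted p = 7.78e-15), at the 97.5 percentile of all genes tested.

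EGLN2, the remaining hydroxylase gene, could not be assessed. It had 1, 1 and 2 counts in vehicle and 0, 1 and 0 counts with panobinostat, under the floor of 3 counts in each library, and no fold is given. In GENCODE release 29, 66.6% of its exon bases are shared on the same strand with other genes, chiefly the readthrough gene RAB4B-EGLN2. That gene and RAB4B had 0 counts in all 6 libraries. The labels do not say how reads shared between genes were counted, and the part of this overlap in the low count was not tested. The counts of EGLN2 are thus no measure of its RNA here, and the ratios of EGLN1 and EGLN3 to it (log2 differences of 1.78 and 5.87, exact two-sided permutation p = 0.1 each) rest on 0 to 2 EGLN2 counts per library. No other gene of the 10 shared more than 3.48% of its exon bases with another gene on either strand.

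VHL, the substrate receptor of the ligase that binds hydroxylated alpha subunits, changed little. It was at 103, 106 and 107 CPM in vehicle and 119.8, 127 and 117 CPM with panobinostat. The treated libraries were all higher, by a narrow margin. The mean rose from 105 ± 1.86 to 121 ± 5.21 CPM (log2 fold change 0.20 ± 0.04, edgeR adjusted p = 0.000274). Scaling by the upper quartile shifts the median of all genes by 0.12 on the log2 scale, and under it ARNT and VHL stood at 0.30 and 0.32 and CA9 at -0.31, in the same directions. Counts of HIF1A relative to VHL went from 3.17, 3.15 and 3.40 in vehicle to 6.25, 5.93 and 5.80 with panobinostat, a 1.85-fold rise of the ratio (log2 difference 0.89, exact two-sided permutation p = 0.1).

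The carbonic anhydrases moved in opposite directions. CA9, a membrane enzyme used widely as a marker of hypoxic tumour cells, was at 30.2, 39.1 and 35.6 CPM in vehicle and 27.5, 25.0 and 25.5 CPM with panobinostat. The treated libraries were the lower ones, with vehicle replicate 1 nearest to them. The mean fell from 35.0 ± 4.47 to 26.0 ± 1.33 CPM, a log2 fold change of -0.43 ± 0.08 (edgeR adjusted p = 0.000167). CA12, a second membrane carbonic anhydrase, was at 0.542, 0.956 and 0.726 CPM in vehicle, from 21, 33 and 28 counts, and at 1.99, 1.94 and 2.48 CPM with panobinostat, from 72, 71 and 80 counts. The groups were separate, at low levels in both. Its mean rose from 0.741 ± 0.208 to 2.14 ± 0.295 CPM (log2 fold change 1.53 ± 0.20, edgeR adjusted p = 2.34e-06). The ratio of CA9 to CA12 counts was 54.4, 40.3 and 48.2 in vehicle and 13.7, 12.8 and 10.2 with panobinostat, a drop of 3.89-fold (log2 difference -1.96, exact two-sided permutation p = 0.1). CA9 remained far above CA12 in every library. Of the neighbours of CA9, the tropomyosin gene TPM2 fell from 168 ± 5.22 to 59.8 ± 1.69 CPM. The noncoding RNA gene RMRP did not pass (log2 difference -1.56 ± 1.39), with vehicle replicate 1 at 12.0 CPM and the other libraries at 0.648 to 2.20 CPM.

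**Figure D3:**
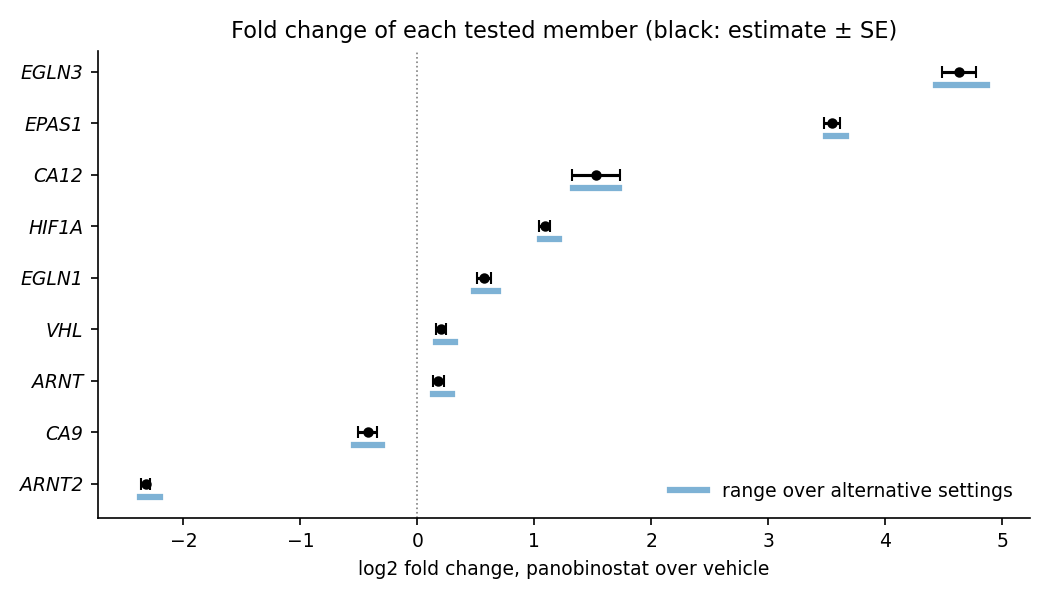
Log2 fold change of panobinostat over vehicle for each tested gene (black points with bars of ± SE) and the range of the same value over the alternative settings (blue). EGLN3 (4.63) and EPAS1 (3.54) lie farthest to the right and ARNT2 (-2.32) farthest to the left, and no range crosses 0.

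Levels of different genes were compared per kilobase of exon in GENCODE release 29. In vehicle the order was HIF1A at 80.3 ± 4.46 CPM per kb, ARNT2 at 52.8 ± 0.42, VHL at 28.2 ± 0.498, CA9 at 21.6 ± 2.76, EGLN1 at 16.9 ± 1.39, ARNT at 14.7 ± 0.376 and EPAS1 at 0.737 ± 0.0296 CPM per kb. CA12 and EGLN3 followed at 0.116 ± 0.0324 and 0.0999 ± 0.031 CPM per kb, with overlapping ranges, so their order is not resolved. With panobinostat HIF1A was again first, at 171 ± 9.86 CPM per kb, followed by VHL at 32.5 ± 1.39 and EGLN1 at 25.1 ± 1.47 CPM per kb. ARNT at 16.7 ± 0.737 and CA9 at 16.1 ± 0.820 CPM per kb overlapped. ARNT2 came next at 10.5 ± 0.364 CPM per kb, then EPAS1 at 8.59 ± 0.311, EGLN3 at 2.51 ± 0.108 and CA12 at 0.333 ± 0.0461 CPM per kb. ARNT2 thus went from the second place to the sixth, and EPAS1 kept the seventh in spite of its rise.

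The genes nearest in pattern were sought over the 6 libraries among 10489 tested protein-coding genes that reached 5 CPM in a group, by the root mean square distance of log2 CPM after subtraction of the vehicle mean. Nearest to HIF1A were STX7 (distance 0.0187), VPS4B (0.0192) and FNDC3B (0.0301). PKP2 (0.0641), NELL2 (0.0966) and RHOF (0.0979) were nearest to EPAS1. For CA9 they were ZSCAN12 (0.0448), TMEM144 (0.0553) and TET1 (0.0682), and for CA12 ZNF578 (0.174), IQCH (0.179) and ZNF425 (0.186). The distances of CA12 were the largest of these, at the lowest counts. Because the vehicle mean was subtracted, near genes are chiefly those with a like fold change. Shared regulation was not tested.

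Genes that act on HIF or with the VHL ligase were called in shares near those of all genes. Of 18 tested, 8 were higher and 8 lower (44.4% each, against 41.8% and 41.0% of all genes tested), with a median log2 fold change of -0.03 against 0.01 over all genes tested. The largest rise in the list was that of CITED2, which encodes a nuclear protein that competes with HIF alpha subunits for the coactivators CREBBP and EP300. CITED2 was at 10.7, 11.1 and 13.0 CPM in vehicle and 332, 330.2 and 296 CPM with panobinostat. It was low in each vehicle library and high in each treated library, a log2 fold change of 4.78 ± 0.07 (edgeR adjusted p = 5.03e-17). Its paralog CITED4 fell from 19.0 ± 2.76 to 14.1 ± 1.32 CPM and the acetyltransferase CREBBP from 137 ± 3.10 to 93.0 ± 2.51 CPM. EP300 did not pass, with a log2 difference of 0.02 ± 0.04.

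Among the partners of VHL in its ligase, the ring subunit RBX1 fell from 35.2 ± 1.60 to 17.2 ± 0.656 CPM. The scaffold CUL2 rose from 75.6 ± 5.29 to 109 ± 2.28 CPM and the elongin TCEB2 (current symbol ELOB) from 79.5 ± 3.44 to 104 ± 4.87 CPM. The elongin TCEB1 (ELOC) did not pass, at 74.0 ± 2.39 and 69.5 ± 2.42 CPM. HIF1AN, the asparaginyl hydroxylase that blocks binding of coactivators by HIF, differed little, with a log2 fold change of 0.19 ± 0.04 (edgeR adjusted p = 0.000483). P4HTM, a transmembrane prolyl hydroxylase, had 2 and 6 counts per group and was not tested. Of the ubiquitin ligases that act on the EGLN proteins, SIAH1 fell by 0.63 and SIAH2 rose by 0.17 on the log2 scale. OS9 and FKBP8, whose proteins bind EGLN enzymes, rose by 0.63 and 0.27 on the log2 scale. The chaperone gene HSP90AB1 fell from 2376 ± 24.7 to 1457 ± 29.8 CPM, and LIMD1, an adaptor of the EGLN and VHL proteins, by 0.56 on the log2 scale.

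Other genes of the bHLH-PAS family, to which the HIF subunits belong, and its coactivators were mostly higher. Of 12 tested, 8 (66.7%) were higher and 3 (25.0%) lower, against 41.8% and 41.0% of all genes tested, with a median log2 fold change of 0.29. Over the filter in both groups were 11, of which 8 (72.7%) were higher and 2 (18.2%) lower. The shares of all genes are not limited in this way. The median log2 fold change of the 11 was 0.40, against 0.01 over all genes. AHR, the ligand-activated partner of ARNT, rose from 176, 187 and 207 CPM to 884, 875 and 809 CPM (log2 fold change 2.17 ± 0.06, edgeR adjusted p = 8.3e-14). All treated libraries were above all vehicle libraries. NCOA3 rose from 84.4 ± 0.871 to 160.3 ± 1.73 CPM, and its paralog NCOA2, a coactivator as well, fell from 40.3 ± 0.248 to 17.5 ± 1.32 CPM. NCOA1, the remaining member of that trio, differed little (log2 fold change 0.12 ± 0.05, edgeR adjusted p = 0.0359), and its call was lost with the replicate block (adjusted p = 0.0904), with no filter (adjusted p = 0.189) and on leaving out any library other than panobinostat replicate 2 (edgeR adjusted p = 0.0707 to 0.147). The circadian clock factors ARNTL and ARNTL2 pair with CLOCK or with its paralog NPAS2. ARNTL, ARNTL2 and NPAS2 rose by 0.82, 0.60 and 0.40 on the log2 scale. CLOCK was lower (log2 fold change -0.18 ± 0.04, edgeR adjusted p = 0.00131), a call that ended with upper quartile scaling (-0.06, adjusted p = 0.219) and with the filter of 5 CPM (-0.09, adjusted p = 0.0867). SIM2, over the filter in the vehicle libraries alone, fell from 0.900 ± 0.289 to 0.127 ± 0.0949 CPM.

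Genes known as HIF targets, a list that holds none of the 10 genes, were mostly higher. Of 53 listed, 49 were tested, and all 49 reached the count filter in both groups. Among them 41 were higher (83.7%, against 41.8% of all genes tested) and 4 lower, and 20 rose at least 2-fold (18.9% of all genes did). The median log2 fold change was 0.70, against 0.01 over all genes. By role, 12 of 14 genes of glucose uptake and glycolysis were higher, 6 of 7 of mitochondria and mitophagy, 5 of 5 secreted or vascular factors, 4 of 5 matrix hydroxylases and crosslinking genes, and 14 of 18 of the remainder. The list was drawn from general knowledge of HIF, but with earlier results of these data known. It is described by its counts alone, with no test of the list. Many of its genes answer to other regulators as well.

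P4HA2, ANKRD37 and ENO2 were among the leading rises by adjusted p. P4HA2, a collagen prolyl hydroxylase, went from 57.7 ± 1.45 to 193 ± 4.29 CPM, the ankyrin repeat gene ANKRD37 from 7.53 ± 0.632 to 46.4 ± 2.11 CPM, and the glycolytic enzyme ENO2 from 92.4 ± 4.12 to 247 ± 7.07 CPM. The 4 falls were those of PFKFB3, a regulator of glycolysis (196 ± 7.03 to 68.4 ± 1.84 CPM), the adenylate kinase AK4 (66.9 ± 5.68 to 38.7 ± 1.72 CPM), the hexokinase HK2 (194 ± 12.2 to 167 ± 4.15 CPM) and NDUFA4L2, a mitochondrial protein (1.11 ± 0.363 to 0.467 ± 0.0970 CPM). ERO1L, DDIT4, RORA and VLDLR did not pass, with log2 differences of -0.08, 0.08, 0.07 and -0.07. The following were chosen after their values were seen. VEGFA, the angiogenic factor, rose from 53.6 ± 1.09 to 69.0 ± 0.878 CPM, NDRG1 from 192 ± 17.4 to 783 ± 15.7 CPM, and PDK1, a kinase that restrains pyruvate dehydrogenase, from 78.2 ± 10.2 to 168 ± 3.73 CPM. BNIP3, a mitophagy receptor, rose by 1.41 ± 0.09 on the log2 scale. CA9 moved against most of this list, at -0.43, and EGLN3 and EGLN1 with it, at 4.63 and 0.57 on the log2 scale.

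**Figure D4:**
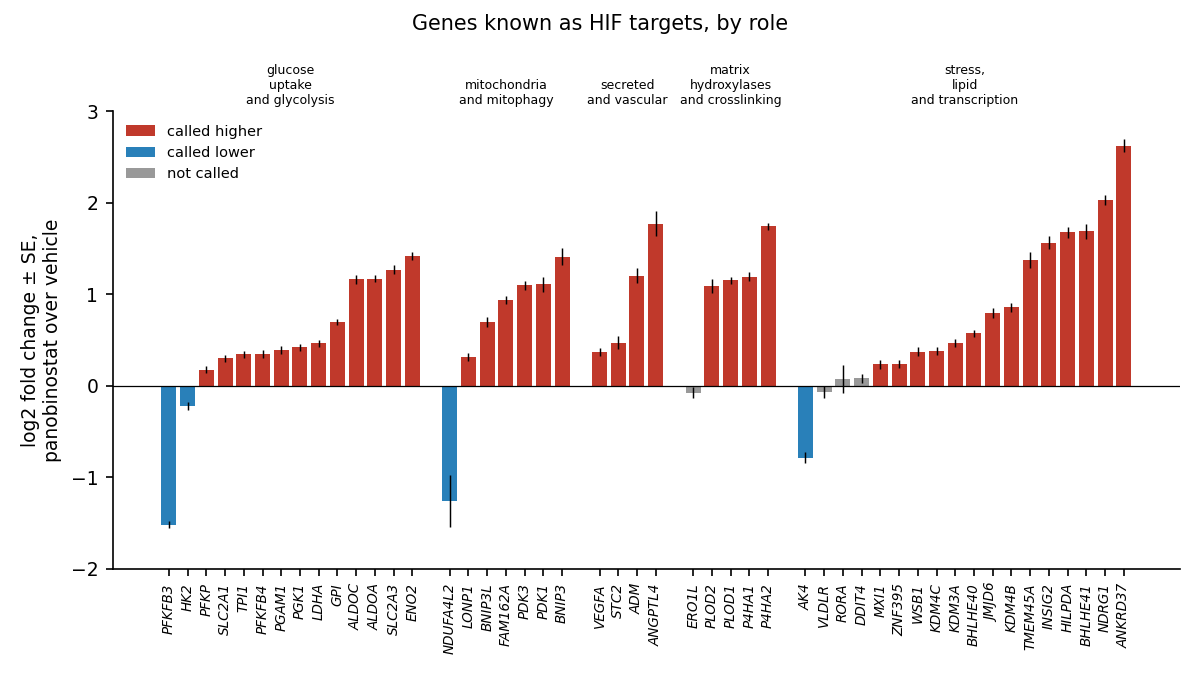
Log2 fold change ± SE (panobinostat over vehicle) of tested HIF target genes, grouped by role, with called rises in red, called falls in blue and genes that did not pass in grey. Bars above 0 prevail in each role. Of the bars drawn, the tallest is that of ANKRD37 (2.63) and the deepest that of PFKFB3 (-1.52).

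The other carbonic anhydrases were mostly at low counts. Of 13, 6 were tested, 4 of them over the filter in both groups. Of these 4, 2 (50.0%) rose and 1 (25.0%) fell. Of all genes tested, not limited in this way, 41.8% were higher and 41.0% lower. Another 3 of the 13, CA5A among them, had 0 counts in every library. CA6, CA10 and CA14 had 2, 2 and 1 counts over the vehicle libraries and 15, 1 and 2 over the treated ones, and were not tested. CA5B, a mitochondrial enzyme, was the most counted of them in vehicle, at 57.3, 57.9 and 63.0 CPM, and stood at 13.0, 13.0 and 13.2 CPM with panobinostat. The fall was uniform across the treated libraries, with a log2 fold change of -2.18 ± 0.06 (edgeR adjusted p = 1.3e-15). A near-identical pseudogene of CA5B exists, so its count is uncertain. The cytosolic enzyme CA13 rose from 3.20 ± 0.261 to 8.73 ± 0.191 CPM and CA8, a relative without catalytic activity, from 0.554 ± 0.0144 to 2.64 ± 0.311 CPM. CA11 did not pass (log2 difference -0.17). CA4 went from 0 vehicle counts to 41, a level at least 4.79-fold higher than 3 counts per library, and CA2 had 1 and 48, a ratio of 51.1 (95% interval 8.74 to 2059). Floors and intervals cover counting error only.

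Transporters that work beside carbonic anhydrases in pH control moved in both directions. Of 16 tested, 12 were over the filter in both groups, of which 7 (58.3%) were higher and 4 (33.3%) lower. Of all genes tested, not limited in this way, 41.8% were higher and 41.0% lower. Over all 16 the shares were 68.8% and 25.0%, with some genes over the filter in the treated libraries alone. The median log2 fold change of the 12 was 0.46. The sodium bicarbonate exchanger SLC4A8 rose from 14.9 ± 0.761 to 77.2 ± 0.666 CPM and the anion exchanger SLC26A6 from 17.2 ± 1.20 to 39.2 ± 1.58 CPM. The bicarbonate transporter SLC4A5, not among the 12, rose from 0.394 ± 0.181 to 6.15 ± 0.733 CPM. It had 22, 14 and 8 counts in vehicle and was over the filter in only 2 vehicle libraries. Of the lactate carriers, SLC16A3 rose from 7.99 ± 1.38 to 17.4 ± 0.545 CPM, while SLC16A1 fell from 222 ± 7.52 to 188 ± 5.90 CPM and SLC16A7 from 89.5 ± 11.6 to 46.4 ± 6.09 CPM. BSG, the chaperone of SLC16A1 and SLC16A3, rose from 455 ± 20.5 to 1046 ± 31.8 CPM. SLC4A3 and SLC4A7 fell by 0.84 and 0.30 on the log2 scale, and the call of SLC4A7 ended with upper quartile scaling (-0.18, edgeR adjusted p = 0.0866) and without vehicle replicate 3 (-0.26, edgeR adjusted p = 0.11). Among proton exporters, SLC9A3 went from 0 vehicle counts to 49, a level at least 5.71-fold higher than 3 counts per library.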

How the data were processed

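RNA of 6 A375 libraries was analysed from the authors' deposited table of raw read counts per gene symbol, with no normalization. The name of the table gives STAR. Its version, the genome build, annotation, counting rule and strand setting are not given, and coordinates are given only for RefSeq promoters. The table had 25435 rows, of which 92 spike-in rows, all at 0 counts, were left out. The labelled dose set the groups, and column names matched sample titles. Genes were kept with edgeR's filterByExpr, scaled by TMM and tested with the quasi-likelihood F test (glmQLFit, robust = TRUE) on group alone, calling an adjusted p under 0.05. Replicates of a group differed beyond sampling noise (chi-square per degree of freedom 1.95 to 9.60). Ratios within a library had 0.5 added to each count and were tested by exact permutation. Exon lengths came from GENCODE release 29. The steps were tested on simulated data. Alternatives were DESeq2, limma-voom, a replicate number as block, each library left out, scaling by RLE, by upper quartile or by library size, no filter or at least 5 CPM in 3 libraries and, for ratios, 1 added to each count. Named genes were the 10 members, the 4 called genes with the lowest adjusted p in either direction of a list, all genes of roles with 4 or fewer, antisense or neighbouring genes with counts, and the 3 nearest in pattern. Some genes of the lists enter the counts and medians but are not reported or drawn here. The members and lists were chosen with earlier results of these data known. Software was Python 3.11.15, matplotlib 3.10.9, R 4.3.3, DESeq2 1.42.0, limma 3.58.1 and edgeR 4.0.16.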

Additional observations from a re-analysis of the deposited data

How the results depend on the processing

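Each of the 9 tested genes kept its direction and its call under every alternative in which it was tested. CA12 was not tested with the filter of 5 CPM, and EGLN2 was tested only without a filter. Leaving out each library in turn gave log2 fold changes of 1.04 to 1.13 for HIF1A, 3.50 to 3.56 for EPAS1, 0.14 to 0.20 for ARNT, -2.35 to -2.30 for ARNT2, 0.49 to 0.62 for EGLN1, 4.43 to 4.87 for EGLN3, 0.17 to 0.22 for VHL, -0.54 to -0.36 for CA9 and 1.33 to 1.72 for CA12. The count of HIF target genes called higher was 41 to 42 and lower 4 to 5 with a library left out. With the 5 CPM filter, 1 gene of the other bHLH-PAS list was lower in place of 3, since SIM2 was not tested and CLOCK lost its call. With the same filter 1 other carbonic anhydrase was higher in place of 4, with 2 tested in place of 6. The median of the other carbonic anhydrases turned to -0.27 with that filter. The median of the HIF regulators, -0.03, turned to 0.085 with upper quartile scaling, 0.13 with no filter and 0.060 with the 5 CPM filter; the cause was not tested. Calls and directions were the same in every alternative for 16 of 18 HIF regulators, 9 of 12 other bHLH-PAS genes, 45 of 49 HIF targets, 6 of 6 other carbonic anhydrases and 14 of 16 transporters, where tested. Small log2 differences that had not passed changed sign: with upper quartile scaling TCEB1 (0.028), NPAS1 (0.019), ERO1L (0.041) and VLDLR (0.052), with the 5 CPM filter TCEB1 (0.0027), ERO1L (0.016) and VLDLR (0.027), and with no filter EP300 (-0.022). With a library left out the range was -0.0038 to 0.040 for EP300, -0.055 to 0.22 for RORA, -0.15 to 0.24 for HVCN1 and -2.11 to 0.75 for RMRP. EP300 was called higher under upper quartile scaling (0.14) and the 5 CPM filter (0.12), as was DDIT4 (0.20 and 0.17). TCEB1 was called lower with no filter (-0.14) and without vehicle replicate 1 or panobinostat replicate 2 (-0.12 each), ERO1L without vehicle replicate 1 (-0.15) and NPAS1 without vehicle replicate 3 (-0.21). Upper quartile scaling gave 57.3% of all calls as higher, against 50.5%. Replicate numbers come only from the order of the samples, and same-numbered libraries did not deviate together (r = -0.0776, -0.0576 and -0.141). With the replicate block 6259 genes were higher and 6150 lower, against 6471 and 6355, and 7 and 2 of the 10 genes. Among the list genes the block ended the call of NCOA1 (adjusted p = 0.0904) and no other. The ratios had the same direction with the block, the other added count and each library left out. Low counts limit what can be said of EGLN2, at 1, 1 and 2 vehicle counts. The same holds for CA4, CA2 and other genes at 0 to 3 counts over the vehicle libraries. The cause of the low EGLN2 count was not tested.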

Other observations

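HIF target genes also differed in order among the vehicle libraries. Of the 49 tested, 34 (69.4%) were highest in vehicle replicate 2 and 27 (55.1%) lowest in vehicle replicate 1, against 25.4% and 36.7% of all genes tested. The median deviation from the group mean was 0.06 in vehicle replicate 2 and -0.07 in vehicle replicate 1 on the log2 scale, small beside the list's median change of 0.70. Among the 9 tested genes of oxygen sensing and pH control, 7 were lowest in vehicle replicate 1, CA9 and EGLN1 among them. In the panobinostat libraries the largest share of highest values was 40.8%, in replicate 3, which was also highest for 43.5% of all genes. The labels give no batch, and what sets the vehicle libraries apart was not tested.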
